A study of Homo sapiens with 60 samples.

Results

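The lower dose step of Menthae Herba compared HepG2 cells given 100 µg/mL of its water extract with cells given 20 µg/mL, and its members were 6 of the 60 libraries of the series, 3 at each dose, taken by the dose in the sample labels. HepG2 is a human hepatocellular carcinoma line that keeps many liver functions. Menthae Herba is the dried herb of mint, extracted in hot water. All cells were exposed for 24 h, and the dose rose 5-fold. Cells given 500 µg/mL of the same extract (n = 3), cells given 20 and 100 µg/mL of a Saposhnikoviae Radix water extract (n = 3 each), and vehicle cells (n = 3), labelled 0.1% DMSO although the series design text names 2%, were used for comparison. Saposhnikoviae Radix is the dried root of a plant of the carrot family. Multi-herb formulas of the series, named with their counts below, were tested over the same dose step. Cells given 500 µg/mL of Saposhnikoviae Radix or of a formula (n = 3 each) are quoted only for their summed metallothionein level. Their replicated libraries were part of the shared fit. The vehicle libraries carry a different leading code in their labels from the libraries of both herbs. Whether this difference affected the vehicle levels was not tested. The comparison asked which genes moved between the lower doses. Whether the 3 replicates of a group were separate cultures is not given in the labels. A p-value here measures the spread between replicate libraries, estimated over all 57 libraries fitted together and not only the 6 compared. That spread may be technical.

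Metallothioneins are small cysteine-rich proteins that bind zinc and copper, and their genes sit in a cluster on chromosome 16. Zinc entering the nucleus binds the transcription factor MTF1, which then binds metal response elements in the promoters of the metallothioneins and of SLC30A1, the transporter that exports zinc from the cell. Zinc importers of the SLC39 family bring the metal in. Glycolytic enzymes, cholesterol and fatty acid synthesis, and the secreted proteins of plasma are other programmes that HepG2 shares with liver, and NRF2 is the factor that switches on antioxidant and detoxifying enzymes.

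Promoters of 3 genes that fell with dose are printed because metal response elements are known to lie there. The sequences are from RefSeq on GRCh38.p14, and capitals mark every match to the core of the element, TGCACNC or TGCGCNC on either strand. Matches were counted from 250 bases before to 50 after the start that RefSeq gives, and the 250 bases before that start are shown. The gene spans given with the values are from GENCODE and can begin at another start, so a stretch shown can lie inside such a span, as for MT2A. The MT2A window held 8 matches, 7 of them in the stretch shown, chr16:56608334-56608583 on the plus strand. The MT1X window held 4, all in chr16:56682220-56682469 on the plus strand. The SLC30A1 window, looked up after its values were seen, held 2, 1 of them in chr1:211579162-211579411 on the minus strand.
MT2A: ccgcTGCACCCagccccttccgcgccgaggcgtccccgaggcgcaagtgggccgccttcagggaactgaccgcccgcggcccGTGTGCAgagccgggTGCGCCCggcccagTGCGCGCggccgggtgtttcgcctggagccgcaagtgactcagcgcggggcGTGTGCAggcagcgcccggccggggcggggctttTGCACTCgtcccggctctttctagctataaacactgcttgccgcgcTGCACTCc
MT1X: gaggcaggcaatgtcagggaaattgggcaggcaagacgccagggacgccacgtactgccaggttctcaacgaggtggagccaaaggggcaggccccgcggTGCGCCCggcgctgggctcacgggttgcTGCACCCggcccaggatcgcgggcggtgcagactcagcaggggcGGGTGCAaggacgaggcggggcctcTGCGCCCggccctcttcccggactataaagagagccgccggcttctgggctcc
SLC30A1: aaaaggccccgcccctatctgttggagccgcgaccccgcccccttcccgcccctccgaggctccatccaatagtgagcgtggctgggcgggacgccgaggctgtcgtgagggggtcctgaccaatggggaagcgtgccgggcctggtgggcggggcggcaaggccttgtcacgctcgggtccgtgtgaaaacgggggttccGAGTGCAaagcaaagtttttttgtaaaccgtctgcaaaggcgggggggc
Of 35116 promoter windows in the table, 29.6% held at least 1 match, 8.6% at least 2, 0.601% at least 4 and 0.0199% at least 8. Among the genes outside the metallothioneins with the largest changes, the LCN15 window held 2 matches, and the windows of TJP3 and KNG1 held 0. The cores of the hypoxia response element (ACGTG or GCGTG), the xenobiotic response element (TNGCGTG) and the FOXO element (TGTTTNC) were searched in the same way and were found in 48.4%, 5.51% and 18% of windows. Each xenobiotic match holds a hypoxia match, since GCGTG is part of both. The hypoxia core matched 3 times in each of the MT2A, MT1X and SLC30A1 windows, beside 10.1% of all windows with at least 3. In these windows the xenobiotic core had 0 matches, and the FOXO element had 1 in MT1X and 0 in MT2A and SLC30A1. A match is a run of letters and not evidence of binding.

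Totals of the 6 libraries ran from 25019365 to 30130002 expected counts. In both dose groups replicate 3 stood apart from replicates 1 and 2: the chi-square per degree of freedom, which is 1 for counting noise alone, was 13.03 and 16.74 for its pairs at 20 µg/mL against 3.825 for the other pair, and 7.375 and 7.524 against 2.268 at 100 µg/mL. The share of counts from mitochondrially encoded genes was 11.78 to 14.27% at 20 and 10.32 to 11.91% at 100 µg/mL. None of 14 hepatoma markers lay below 1 CPM (counts per unit of library total after TMM scaling) in all 6 libraries, while 6 of 8 fibroblast, 5 of 8 leukocyte, 7 of 8 endothelial, 7 of 8 lung epithelial and 7 of 8 neural markers did. In bulk samples a smaller share of cells that express a gene and less RNA per cell cannot be told apart.

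The lower step was mostly a set of small shifts with a steep fall of the metallothioneins. Of 16644 genes tested, 156 were called (0.937%), 86 higher (0.517%) and 70 lower (0.421%) at 100 than at 20 µg/mL, where called means a Benjamini-Hochberg adjusted p under 0.05 by the quasi-likelihood F test of edgeR. The median log2 fold change was 0.28 over the genes called higher and −0.29 over those called lower, and −0.00 over all genes tested. Only 10 called genes moved at least 2-fold, 1 upward (LCN15) and 9 downward (6 metallothioneins and 3 genes without a symbol). In each of the 156 the 3 values of the 2 groups did not overlap, which held for 17.2% of all genes tested. The same step gave 2 called genes for Saposhnikoviae Radix (0.012%), 1 for Saengmaek-san (0.00601%), 13 for Guibi-tang (0.0781%; 10 higher, 0.0601%, and 3 lower, 0.018%), 1 for Soyo-san (0.00601%) and 2 for Okbyeongpung-san (0.012%), the last 4 being multi-herb formulas of the series. Replicates of Saengmaek-san and Guibi-tang differed in the noncoding RNA MALAT1, at 186.9, 177.2 and 386.5 CPM and at 214.3, 499.9 and 443.1 CPM at 100 µg/mL. The Menthae Herba libraries at 100 µg/mL had 198.1 to 228 CPM. Whether this spread limited the counts of the formulas was not tested. The count for Menthae Herba depended on single libraries. It was 88 without 100 µg/mL replicate 2 and 81 without 100 µg/mL replicate 3, the count of lower genes was 38 without 100 µg/mL replicate 1 and 41 without 20 µg/mL replicate 3, and 55 genes were called with both libraries numbered 3 left out, an alternative added after the data were seen.

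**Figure D1:**
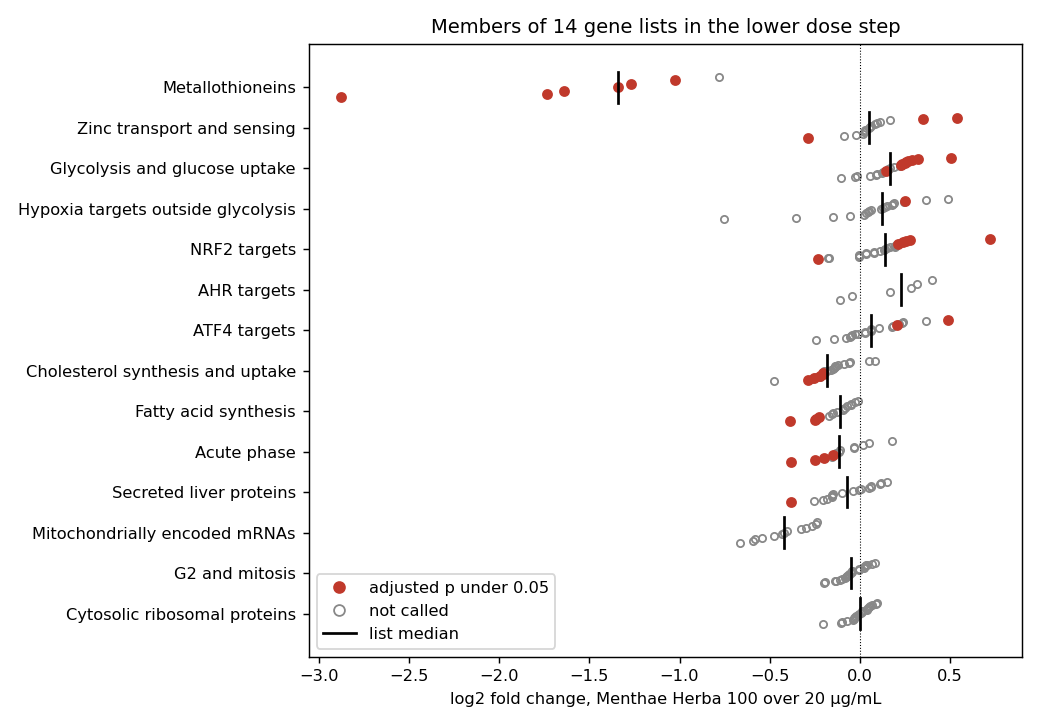
Log2 fold change of 100 over 20 µg/mL Menthae Herba (horizontal axis) for the tested members of 14 gene lists (rows); filled points passed an adjusted p under 0.05, open points did not, and the vertical bar is the list median. The metallothioneins lie far to the left with a median of −1.34, while the glycolysis members lie mostly to the right and the cholesterol synthesis members mostly to the left of 0; the leftmost point, MT1M, rests on 5 counts at 100 µg/mL, so its position is imprecise.

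Metallothioneins made up the steepest response. Of 9 metallothionein genes listed, 7 had enough counts to be tested and 6 fell (MT1E, MT1F, MT1G, MT1M, MT1X and MT2A), with a list median of −1.34 log2. The called share was 85.7% of those tested, beside 0.937% of all genes. MT1G, at chr16:56666731-56668065, was measured at 36.1, 35.4 and 45.5 CPM at 20 µg/mL and at 12.4, 11.9 and 10.95 CPM at 100 µg/mL. All 3 libraries at 100 µg/mL lay far below all 3 at 20 µg/mL, and the vehicle libraries lay above both, at a mean of 59.5 CPM. The log2 fold change of MT1G was −1.73 ± 0.16 (SE), 3.33-fold lower, with an adjusted p of 1.85e-09. MT1F (chr16:56657694-56660698) went from 21.9, 20.2 and 18.2 CPM to 7.19, 6.39 and 5.78 CPM, a log2 fold change of −1.64 ± 0.16 (adjusted p = 1.85e-09). MT1E (chr16:56625475-56627112) went from 66.5, 67.3 and 72.1 CPM to 29.1, 28.1 and 24.15 CPM, a log2 fold change of −1.34 ± 0.17 (adjusted p = 1.47e-06). For both genes the groups were again fully separate. MT1X (chr16:56682424-56684196), whose promoter is printed above, had 22.5, 21.8 and 29.3 CPM at 20 µg/mL and 10.96, 9.99 and 9.61 CPM at 100 µg/mL, a log2 fold change of −1.27 ± 0.13 (adjusted p = 4.34e-09).

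MT2A, with 8 metal response cores in its promoter window, fell 2.03-fold. Its levels (chr16:56608199-56609497) were 129, 120 and 146 CPM at 20 µg/mL and 72.2, 67.8 and 54.65 CPM at 100 µg/mL, beside a vehicle mean of 209.9 CPM. The groups did not overlap, and the log2 fold change was −1.02 ± 0.16 (adjusted p = 0.000201). MT1M was near the limit of detection, with 13, 10 and 14 counts at 20 µg/mL and 2, 2 and 1 counts at 100 µg/mL. Pooled, the 100 µg/mL level was 0.129 times that at 20 µg/mL (95% exact interval 0.0394 to 0.328, counting error only), with an adjusted p of 0.000714. MT1A was not called. Its mean was 1.39 CPM at 20 and 0.81 CPM at 100 µg/mL (log2 fold change −0.78 ± 0.24, adjusted p = 0.102). Summed over the family, the level was 265.8 to 313.1 CPM at 20 and 105.9 to 132.8 CPM at 100 µg/mL, against 428.5 to 454.5 CPM in vehicle. All 6 calls held when any of the 6 libraries was left out. With both libraries numbered 3 left out, 4 held, MT1M and MT2A being lost, with adjusted p of 0.0591 and 0.0553. MT2A was also lost in the fit of only the 6 libraries with a replicate block (0.157). These paralogs are alike in sequence, so the count of each depends on how shared reads were assigned.

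**Figure D2:**
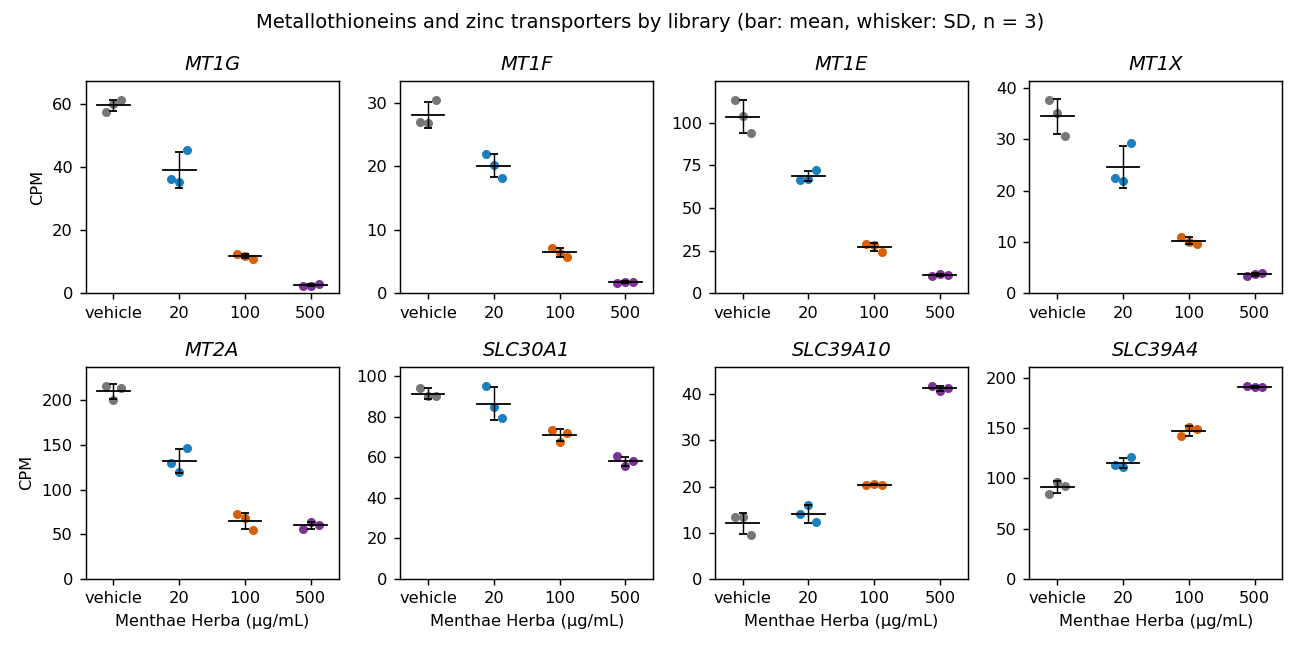
CPM (vertical axes, from 0) of 5 metallothioneins and 3 zinc transporters in vehicle and in 20, 100 and 500 µg/mL Menthae Herba (n = 3 each); points are libraries, bars means and whiskers SD. The metallothioneins drop at each dose, except that MT2A lies at similar levels at 100 and 500 µg/mL, while SLC39A10 and SLC39A4 climb and SLC30A1 declines.

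Zinc transporters moved less, and in both directions. Of 16 members of the zinc transport and sensing list 2 rose and 1 fell, with a list median of 0.05 log2. The called share was 18.8%, beside 0.937% of all genes. SLC39A10, a zinc importer of the plasma membrane (chr2:195575977-195737702), was at 13.96, 16.03 and 12.26 CPM at 20 µg/mL and at 20.3, 20.5 and 20.4 CPM at 100 µg/mL. The 3 libraries at the higher dose lay close together and above all 3 at the lower dose, a log2 fold change of 0.54 ± 0.10 (adjusted p = 0.000637). SLC39A4, the importer that takes up dietary zinc in the intestine (chr8:144409742-144416895), went from 113.5, 111.0 and 120.8 CPM to 141.7, 151.2 and 148.7 CPM, a log2 fold change of 0.35 ± 0.07 (adjusted p = 0.00151). SLC30A1, the zinc exporter and itself a target of MTF1 (chr1:211571568-211578742), had 95.1, 84.6 and 79.1 CPM at 20 and 73.2, 67.5 and 71.75 CPM at 100 µg/mL. Its groups were separate by a smaller gap, and the log2 fold change was −0.28 ± 0.06 (adjusted p = 0.0107). Without 100 µg/mL replicate 2 or 20 µg/mL replicate 1 the adjusted p of SLC30A1 was 0.131 and 0.163. MTF1, the sensor itself, had a log2 fold change of 0.03 ± 0.07 (adjusted p = 0.943), with means of 18.55 CPM at 20 and 18.89 CPM at 100 µg/mL.

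Of 23 genes of glycolysis and glucose uptake, all tested, 9 rose and 0 fell, a share of 39.1% beside 0.937% of all genes, and the list median was 0.17 log2. Glucose entry was represented by SLC2A1 (GLUT1) and SLC2A3 (GLUT3). SLC2A1 (chr1:42925375-42959176) went from 756.9, 744.7 and 766.7 CPM to 899.2, 911.2 and 925.1 CPM, a log2 fold change of 0.27 ± 0.05 (adjusted p = 0.000334). SLC2A3 (chr12:7919230-7936275) went from 252.1, 264.3 and 262.0 CPM to 316.7, 321.7 and 334.6 CPM, a log2 fold change of 0.32 ± 0.06 (adjusted p = 0.000893). For both transporters the spread within a dose was small beside the gap between doses. HK2, the hexokinase that traps glucose in the cell (chr2:74833981-74893359), went from 130.4, 131.2 and 129.1 CPM to 151.5, 160.8 and 166.4 CPM, a log2 fold change of 0.29 ± 0.06 (adjusted p = 0.00781; 0.0827 without 100 µg/mL replicate 3).

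In the lower part of the pathway ALDOA, PGAM1, ENO1, PKM and LDHA rose by 0.26, 0.23, 0.24, 0.15 and 0.25 log2 in this order, with adjusted p of 0.00256, 0.0016, 0.00884, 0.0408 and 0.00492. These enzymes act at some of the steps from aldolase to lactate. ALDOA had 1485, 1470 and 1671 CPM at 20 and 1817, 1908 and 1803 CPM at 100 µg/mL, and LDHA had 910.6, 952.0 and 876.1 CPM at 20 and 1118, 1081 and 1064 CPM at 100 µg/mL. PDK1, the kinase that keeps pyruvate out of the mitochondrion (chr2:172555373-172608669), changed most, from 29.1, 30.3 and 27.3 CPM to 40.6, 41.2 and 41.3 CPM, a log2 fold change of 0.51 ± 0.10 (adjusted p = 0.00369). TPI1, GAPDH and PGK1, which lie between ALDOA and PGAM1 in the pathway, were not called. They had 0.10 ± 0.05, 0.09 ± 0.05 and 0.13 ± 0.06 log2 (adjusted p = 0.514, 0.542 and 0.409). Leaving out 1 library ended the call of PKM except without 100 µg/mL replicate 1 or 20 µg/mL replicate 3, with adjusted p of up to 0.215, and that of ENO1 without 100 µg/mL replicate 2 (0.0554) or 20 µg/mL replicate 3 (0.0587). Over the 6 fits that left out 1 library, 7 to 9 members were called, and with both libraries numbered 3 left out 4 were.

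Targets of the hypoxia-inducible factors outside glycolysis gave 1 call among 20 tested (5%, beside 0.937% of all genes), and their median was 0.12 log2. Of the 20, 16 had a positive fold change, and 7 had an unadjusted p under 0.05, beside 1768 of all 16644 genes. DESeq2 called KDM3A and DDIT4, the latter at 0.37 ± 0.11 log2 in edgeR (adjusted p = 0.0803). KDM3A, a histone demethylase, rose by 0.25 ± 0.06 log2 (adjusted p = 0.0165), with adjusted p of 0.212 without 100 µg/mL replicate 3 and 0.169 without 20 µg/mL replicate 3. VEGFA had a log2 fold change of 0.03 ± 0.05 (adjusted p = 0.909) and CA9 of −0.75 ± 0.43 (adjusted p = 0.56). CA9 was measured at 5.28, 6.56 and 6.29 CPM at 20 and at 3.27, 3.75 and 3.73 CPM at 100 µg/mL.

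**Figure D3:**
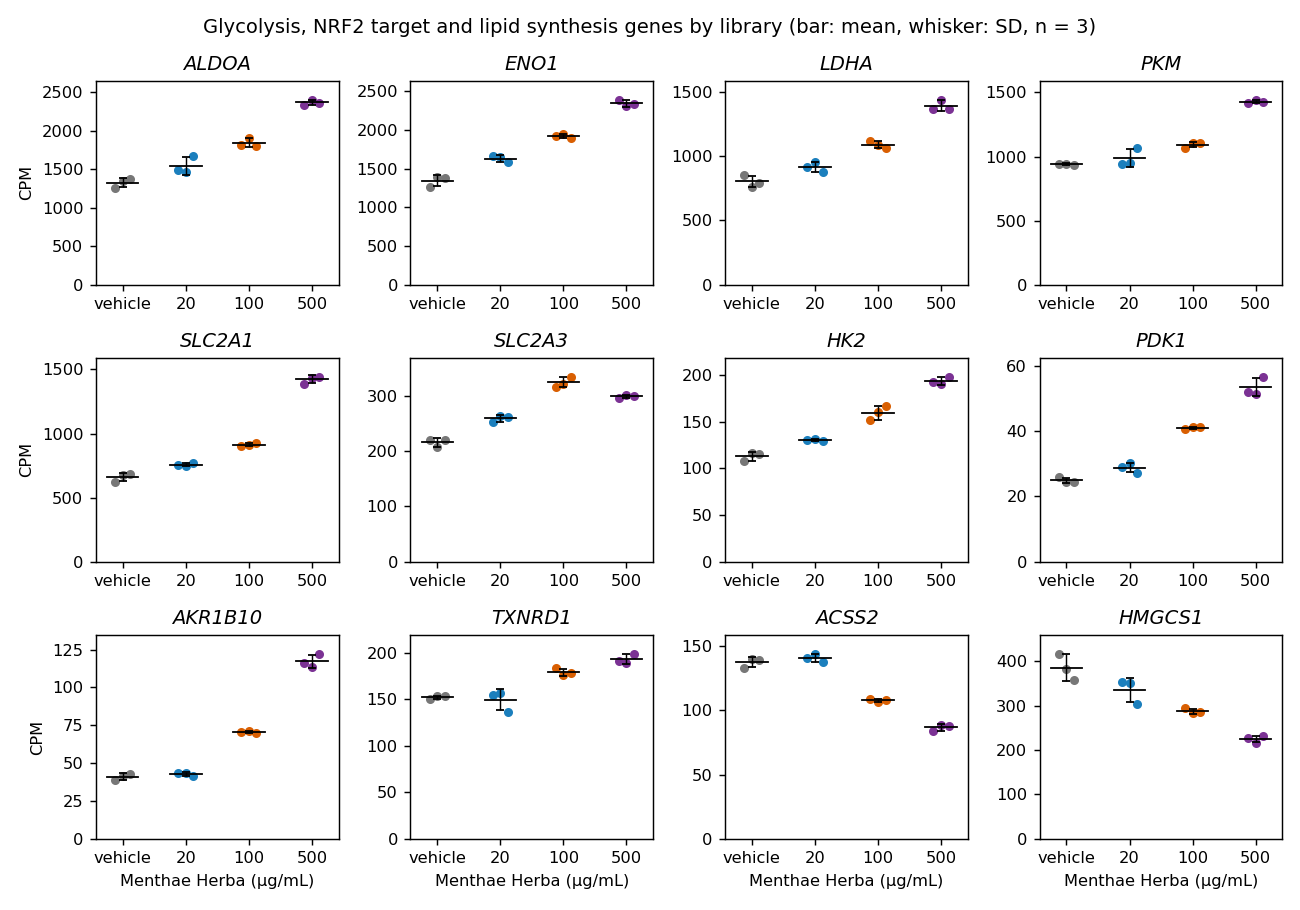
CPM (vertical axes, from 0) of 8 genes of glycolysis and glucose uptake, 2 NRF2 targets and 2 genes of lipid synthesis in vehicle and in 20, 100 and 500 µg/mL Menthae Herba (n = 3 each); points are libraries, bars means and whiskers SD. The 3 libraries at 100 µg/mL lie above the 3 at 20 µg/mL for the glycolysis genes, AKR1B10 and TXNRD1, PKM by the narrowest gap, and below them for ACSS2 and HMGCS1.

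Among NRF2 targets 5 of 25 tested rose and 1 fell, a share of 24% beside 0.937% of all genes, with a median of 0.14 log2. AKR1B10, an aldo-keto reductase that reduces reactive aldehydes (chr7:134527592-134541408), had the smallest adjusted p of the named genes. It was at 43.55, 43.15 and 41.46 CPM at 20 µg/mL and at 70.5, 71.2 and 69.9 CPM at 100 µg/mL, beside a vehicle mean of 41.0 CPM. The libraries within a dose lay within a few CPM of each other, and the log2 fold change was 0.72 ± 0.06, 1.65-fold higher (adjusted p = 2e-12). SRXN1, which reactivates oxidised peroxiredoxins, went from 88.12, 80.71 and 79.25 CPM to 101.5, 100.5 and 98.7 CPM, a log2 fold change of 0.28 ± 0.05 (adjusted p = 0.000107). TXNRD1, thioredoxin reductase, went from 155.1, 157.0 and 137.0 CPM to 183.3, 176.2 and 178.0 CPM, a log2 fold change of 0.26 ± 0.05 (adjusted p = 0.000837).

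ABCC2, an efflux pump of the bile canaliculus, rose by 0.24 ± 0.04 log2 (adjusted p = 0.000837), and GCLC, the catalytic subunit for glutathione synthesis, by 0.22 ± 0.05 log2 (adjusted p = 0.0103). EPHX1, microsomal epoxide hydrolase, went the other way, with a log2 fold change of −0.23 ± 0.05 (adjusted p = 0.00903). HMOX1, heme oxygenase 1, was not called. Its libraries read 64.2, 61.0 and 63.7 CPM at 20 and 58.2, 56.6 and 52.4 CPM at 100 µg/mL (log2 fold change −0.18 ± 0.06, adjusted p = 0.198). NQO1 was at 0.17 ± 0.05 log2 with an adjusted p of 0.0524. The call of GCLC was lost without 100 µg/mL replicate 1 (0.0993), 100 µg/mL replicate 3 (0.0512) or 20 µg/mL replicate 2 (0.059), and that of EPHX1 without 100 µg/mL replicate 1 (0.0619), 100 µg/mL replicate 3 (0.0814) or 20 µg/mL replicate 3 (0.389). Over the 6 fits that left out 1 library, 4 to 7 NRF2 targets were called higher, DESeq2 called 9, and 2 were called with both libraries numbered 3 left out.

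Of the AHR targets, 6 were tested and 0 were called in edgeR. An unadjusted p under 0.05 was reached by 2, beside 1768 of all 16644 genes. DESeq2 called 1 AHR target, NQO1, which is also on the NRF2 list. CYP1A1, the cytochrome P450 most strongly induced through AHR (chr15:74719542-74725610), was measured at 7.66, 8.86 and 8.20 CPM at 20 µg/mL and at 10.5, 10.5 and 9.20 CPM at 100 µg/mL. The groups did not overlap, but the log2 fold change of 0.29 ± 0.08 did not pass the threshold (adjusted p = 0.0573). CYP1A1 was called in 3 of 15 alternatives, with a replicate block over all libraries (0.0203), without 100 µg/mL replicate 3 (0.0344) and without 20 µg/mL replicate 2 (0.0396).

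Lipid synthesis genes shifted downward. In the cholesterol synthesis and uptake list 5 of 25 fell and 0 rose, a share of 20% beside 0.937% of all genes. The median was −0.18 log2, and 23 of 25 members had a negative fold change. An unadjusted p under 0.05 was reached by 19 of the 25, beside 1768 of all 16644 genes. EBP, a sterol isomerase (chrX:48521158-48528716), went from 101.5, 101.8 and 101.2 CPM to 87.53, 84.85 and 77.5 CPM, a log2 fold change of −0.29 ± 0.05 (adjusted p = 0.000837). SQLE, squalene epoxidase, fell by 0.21 log2 with an SE of 0.04 (adjusted p = 0.0011). FDFT1, squalene synthase, had a log2 fold change of −0.20 ± 0.04 (adjusted p = 0.00274). HMGCS1 and MVK act early in the mevalonate pathway and were called with less margin. HMGCS1 went from 352.1, 349.9 and 303.0 CPM to 293.8, 283.8 and 285.1 CPM, a log2 fold change of −0.22 ± 0.05 (adjusted p = 0.0199), and MVK had −0.25 ± 0.06 (adjusted p = 0.0297). MVK lost its call without each of the 6 libraries (adjusted p 0.059 to 0.151), FDFT1 without 20 µg/mL replicate 1 (0.0532), and HMGCS1 without 20 µg/mL replicate 1 (0.142), 20 µg/mL replicate 2 (0.125), 100 µg/mL replicate 2 (0.12) or 100 µg/mL replicate 3 (0.106). Over these 6 fits 2 to 7 members of the list were called, 2 without 20 µg/mL replicate 1 and 3 without 20 µg/mL replicate 2, 100 µg/mL replicate 2 or 100 µg/mL replicate 3, and 3 were called with both libraries numbered 3 left out.

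In the fatty acid synthesis list 4 of 16 tested fell and 0 rose, a share of 25% beside 0.937% of all genes. All 16 fold changes were negative, and the median was −0.11 log2. ACSS2, which makes acetyl-CoA from acetate (chr20:34872146-34927962), went from 141.0, 144.1 and 137.7 CPM to 108.8, 106.8 and 108.1 CPM. Its vehicle mean was 137.6 CPM, so the level at 20 µg/mL lay near vehicle and that at 100 µg/mL below it. The log2 fold change was −0.38 ± 0.04 (adjusted p = 7.49e-09), and the call held under each of 15 alternative fits. GPAM, which starts triglyceride synthesis, had −0.25 ± 0.05 (adjusted p = 0.00641), MLXIPL, the glucose-sensing factor ChREBP, −0.24 ± 0.06 (adjusted p = 0.0218), and FADS2, a fatty acid desaturase, −0.23 ± 0.05 (adjusted p = 0.0212). FASN had −0.15 ± 0.08 (adjusted p = 0.556). Of these calls GPAM was lost without 100 µg/mL replicate 2 (0.0677) or 20 µg/mL replicate 2 (0.126), and MLXIPL and FADS2 without any library at 100 µg/mL or 20 µg/mL replicate 3, with adjusted p of up to 0.444 and 0.276. The list count was 1 without 100 µg/mL replicate 2, 2 without 100 µg/mL replicate 1, 100 µg/mL replicate 3 or 20 µg/mL replicate 3, and 2 with both libraries numbered 3 left out. CPT1A, which carries fatty acids into mitochondria for oxidation, was the only call among 18 tested PPARA targets and fatty acid oxidation genes, at 0.26 ± 0.07 log2 (adjusted p = 0.0356), and passed only without 100 µg/mL replicate 2 or 20 µg/mL replicate 3 among the 6 fits that left out 1 library (adjusted p up to 0.376).

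Of 13 tested plasma proteins of the acute phase, 4 fell at 100 µg/mL (HPX, HP, FGG and FGA) and 0 rose, with a median of −0.12 log2. The called share was 30.8%, beside 0.937% of all genes. HP, haptoglobin, which binds free hemoglobin (chr16:72054592-72061055), went from 180.1, 178.3 and 171.8 CPM to 150.2, 149.8 and 146.4 CPM, a log2 fold change of −0.25 ± 0.05 (adjusted p = 0.000873). HPX, hemopexin, which binds free heme, went from 16.5, 16.4 and 15.1 CPM to 13.07, 12.25 and 11.49 CPM, a log2 fold change of −0.38 ± 0.09 (adjusted p = 0.014). The fibrinogen chains FGG and FGA had −0.20 ± 0.05 (adjusted p = 0.0245) and −0.15 ± 0.04 (adjusted p = 0.0254). The call of HP held without each library in turn. HPX was called only without 100 µg/mL replicate 1 or 20 µg/mL replicate 3 (adjusted p up to 0.151), and FGG and FGA only without 20 µg/mL replicate 3 (adjusted p up to 0.156 for each), so that 1 or 2 of the list were called without any library other than 20 µg/mL replicate 3, and 3 with both libraries numbered 3 left out. HPX was also the only call among the 18 members of the list of secreted liver proteins. ALB, albumin, had 0.07 ± 0.05 log2 (adjusted p = 0.674), and AFP, the fetal albumin, 0.05 ± 0.05 log2 (adjusted p = 0.795). SULT2A1, a steroid sulfotransferase and the only call among 9 PXR and CAR targets, went from 97.6, 98.1 and 91.5 CPM to 80.34, 79.88 and 75.35 CPM, a log2 fold change of −0.29 ± 0.05 (adjusted p = 0.00134).

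Outside these lists the largest rise was that of LCN15, a secreted lipocalin (chr9:136759634-136766255). It was measured at 1.62, 2.105 and 1.55 CPM at 20 µg/mL and at 5.88, 5.20 and 4.47 CPM at 100 µg/mL, beside vehicle at a mean of 0.81 CPM. All 3 libraries at 100 µg/mL exceeded the highest at 20 µg/mL, a log2 fold change of 1.56 ± 0.19, 2.95-fold higher (adjusted p = 2.51e-07). RNASET2, a ribonuclease of the lysosome and secretions, went from 37.85, 40.56 and 43.54 CPM to 62.2, 65.4 and 59.6 CPM, a log2 fold change of 0.62 ± 0.08 (adjusted p = 2.51e-07). CEMIP, which breaks down hyaluronan, went from 51.55, 52.98 and 51.2 CPM to 71.5, 78.6 and 76.8 CPM, a log2 fold change of 0.54 ± 0.07 (adjusted p = 7.77e-07). NEDD9, a scaffold of focal adhesions, went from 100.8, 105.2 and 115.7 CPM to 141.6, 158.0 and 161.1 CPM, a log2 fold change of 0.52 ± 0.05 (adjusted p = 3.21e-09). TMCC1, a membrane protein of the endoplasmic reticulum, rose by 0.63 ± 0.09 log2 (adjusted p = 2.77e-06). These calls held without each of the 6 libraries.

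CHST15, which sulfates chondroitin, rose by 0.50 ± 0.11 log2 (adjusted p = 0.00674; 0.105 without 100 µg/mL replicate 3). GDF15, a cytokine released under cell stress, went from 93.2, 100.4 and 103.5 CPM to 128.2, 151.6 and 137.9 CPM, a log2 fold change of 0.49 ± 0.09 (adjusted p = 0.00186). It was the only call among 20 p53 targets and, with STC2 (0.21 ± 0.05 log2, adjusted p = 0.0118), 1 of 2 among 22 tested ATF4 targets. STC2, a secreted glycoprotein, was not called without 100 µg/mL replicate 3 (0.0703) or 20 µg/mL replicate 2 (0.0911). Single calls came from further lists, to be read, like those of the p53 and ATF4 lists, beside 0.937% of all genes called. TFRC, the transferrin receptor, rose by 0.27 ± 0.07 log2 (adjusted p = 0.0228) among 20 iron genes, BHLHE40, a clock repressor, by 0.45 ± 0.10 (adjusted p = 0.00734) among 14 clock genes, KLF6 by 0.23 ± 0.05 (adjusted p = 0.00641) among 19 immediate early genes, and RRM2, a ribonucleotide reductase subunit, by 0.16 ± 0.04 (adjusted p = 0.037) among 25 replication genes. LYZ, lysozyme, rose by 0.30 ± 0.06 log2 (adjusted p = 0.00186), from 990 to 1164 CPM over the 3 libraries at 20 to 1314 to 1365 CPM at 100 µg/mL. LYZ is on the leukocyte list, of which PTPRC, CD3E and MS4A1 were at 0 in all 6 libraries.

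Several of these calls rested on single libraries. TFRC was not called without 100 µg/mL replicate 2 (adjusted p = 0.0649), 100 µg/mL replicate 3 (0.105) or 20 µg/mL replicate 3 (0.391), and BHLHE40 without 100 µg/mL replicate 3 (0.094) or 20 µg/mL replicate 2 (0.075). KLF6 was not called without 100 µg/mL replicate 3 (0.126) or 20 µg/mL replicate 1 (0.0622), LYZ without 20 µg/mL replicate 3 (0.0524), and RRM2 without any of the 6 (0.063 to 0.134).

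Among the genes that fell, TJP3, the tight junction scaffold ZO-3 (chr19:3708109-3750813), had 10.42, 11.25 and 11.94 CPM at 20 and 7.26, 7.50 and 7.76 CPM at 100 µg/mL, a log2 fold change of −0.58 ± 0.09 (adjusted p = 3.08e-05). CLDN19, a claudin of the same junctions, went from 16.6, 16.7 and 18.3 CPM to 14.2, 13.0 and 12.3 CPM, a log2 fold change of −0.39 ± 0.07 (adjusted p = 0.00147). Both were called without each library in turn. TJP3 was called in all 15 alternatives, and CLDN19 was not called with only the 6 libraries fitted, with or without a replicate block, or with both libraries numbered 3 left out (adjusted p up to 0.255). GSTA1, a glutathione transferase abundant in liver, went from 39.7, 39.5 and 36.6 CPM to 30.3, 28.3 and 28.6 CPM, a log2 fold change of −0.41 ± 0.10 (adjusted p = 0.0233). KNG1, kininogen, had a log2 fold change of −0.50 ± 0.11 (adjusted p = 0.00628), SHBG, the carrier of sex steroids, −0.44 ± 0.10 (adjusted p = 0.0193), PIGBOS1, a mitochondrial microprotein, −0.46 ± 0.12 (adjusted p = 0.0361), and TNFAIP8L3, a phosphoinositide carrier, −0.41 ± 0.11 (adjusted p = 0.0357). GSTA1 and AKR1B10 have close paralogs and LDHA close pseudogenes, so their counts too depend on how shared reads were assigned. The calls of these 5 rested on fewer libraries. KNG1 was lost without 100 µg/mL replicate 3 (0.191) or 20 µg/mL replicate 3 (0.0754), and SHBG without 100 µg/mL replicate 1 (0.154), 100 µg/mL replicate 2 (0.0554), 100 µg/mL replicate 3 (0.0564) or 20 µg/mL replicate 1 (0.137). GSTA1 and TNFAIP8L3 passed only without 20 µg/mL replicate 3, and PIGBOS1 only without 20 µg/mL replicate 1, with adjusted p of up to 0.136, 0.272 and 0.205.

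Several programmes of the hepatoma cell gave 0 calls in this step: ER chaperones (20 tested), heat shock proteins (18), tRNA synthetases (20), cytosolic ribosomal proteins (22), nuclear encoded respiratory chain subunits (20), lysosome and autophagy (21), histones (10), G2 and mitosis (25), gluconeogenesis (11), bile acid genes (10), interferon-stimulated genes (13), and NF-kB targets and chemokines (9). At an unadjusted p under 0.05 they gave 3, 3, 4, 0, 1, 4, 1, 3, 0, 4, 2 and 2 genes in this order, beside 1768 of all 16644 genes tested. DESeq2 called SQSTM1 of the lysosome list and ICAM1 and CCL20 of the NF-kB list. The medians of these lists lay between −0.11 and 0.13 log2. Of the 17 tested genes of IGF binding and insulin response 0 passed in edgeR and 4 had an unadjusted p under 0.05. IGFBP1, which binds insulin-like growth factors, had 64.95, 73.99 and 74.57 CPM at 20 and 110.4, 131.0 and 116.1 CPM at 100 µg/mL. Its groups were well separated, and its log2 fold change of 0.74 ± 0.21 had an adjusted p of 0.0906. IGFBP1 was called in 6 of 15 alternatives (adjusted p from 1.21e-32 to 0.398 over the 15): by DESeq2, and in edgeR with no filter on low counts, with only vehicle and both herbs, with only the 6 libraries with or without a replicate block, and with a replicate block over all libraries. It was not called with any 1 of the 6 libraries left out (0.145 to 0.306). G6PC1, glucose-6-phosphatase, had 0.00 ± 0.19 log2 (adjusted p = 0.999), and HAMP, hepcidin, had −0.32 ± 0.12 log2 (adjusted p = 0.271).

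Of the mitochondrially encoded transcripts, the 13 mRNAs all had negative fold changes, with a median of −0.42 log2, but 0 were called in edgeR. The smallest adjusted p was that of MT-ND4 at 0.0914, and 11 had an unadjusted p under 0.05, beside 1768 of all 16644 genes. MT-RNR1, the small ribosomal RNA of the mitochondrion, rose from 5333, 5627 and 7137 CPM to 8148, 8049 and 10630 CPM, a log2 fold change of 0.57 ± 0.11 (adjusted p = 0.00164; 0.0616 without 100 µg/mL replicate 3). MT-RNR2, the large ribosomal RNA, had 0.00 ± 0.10 log2 (adjusted p = 0.995). In both groups replicate 3 gave the highest MT-RNR1 value. The mRNA calls changed with the fit, since 13 of the 13 were called lower when no filter on low counts was applied, 6 in a fit of the 6 libraries alone with a replicate block, and 1, MT-ND4, by DESeq2.

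The step from 100 to 500 µg/mL, of the same 5-fold size, changed far more genes (4319 called, 25.9%), and a contrast of the 2 steps tested whether a gene moved by different amounts in them. The steps share the libraries at 100 µg/mL. This contrast called 1247 genes (7.49%), 589 with a more positive (3.54%) and 658 with a more negative (3.95%) top step, and 695, 772 and 768 without 100 µg/mL replicate 1, 2 or 3. Of the 156 genes called in the lower step, 65 were called in it. The lower step that selected them is subtracted in the contrast, so the selection itself pushes differences toward a smaller or opposite top step. Among genes that rose in the lower step, 32 had a larger top step and 10 a smaller or opposite one, and among those that fell, 16 dropped further in the top step and 7 dropped less or turned.

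LCN15 and CYP24A1 rose in the lower step and went back in the top step. LCN15 had a mean of 1.835 CPM at 500 µg/mL, a top step of −1.49 ± 0.19 log2 and a difference between steps of −3.055 ± 0.32 (adjusted p = 5.31e-10). CYP24A1, the enzyme that inactivates vitamin D, went from 26.5, 28.6 and 28.3 CPM to 34.45, 35.72 and 37.35 CPM in the lower step (0.37 ± 0.06 log2, adjusted p = 0.000264). At 500 µg/mL its mean was 18.2 CPM, and the difference between steps was −1.345 ± 0.11 (adjusted p = 1.86e-13). SLC2A3 rose in the lower step and had a top step of −0.12 ± 0.06 log2 (adjusted p = 0.148), with a difference of −0.44 ± 0.10 (adjusted p = 0.00284). AKAP12, a scaffold for protein kinase A, rose more in the top step, from 0.38 ± 0.06 log2 in the lower step to 1.47 ± 0.06 in the top step, a difference of 1.09 ± 0.11 (adjusted p = 2.88e-10). GDF15 and CEMIP also rose more in the top step, with differences of 1.05 ± 0.16 and 0.84 ± 0.12 log2 (adjusted p = 1.61e-05 and 1.46e-06).

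Among the genes that fell, TNFAIP8L3, GSTA1 and ACSM2B, an acyl-CoA synthetase of the mitochondrion, fell more steeply in the top step, with differences of −1.05 ± 0.20, −0.95 ± 0.18 and −0.83 ± 0.15 log2 (adjusted p = 0.000259, 0.000227 and 9.73e-05). For AKR1B10 the steps were 0.72 ± 0.06 and 0.73 ± 0.06 log2, and their difference of 0.01 ± 0.10 was not called (adjusted p = 0.981). MT1G also had steps of similar size, −1.73 ± 0.16 and −2.20 ± 0.23 log2 (difference −0.47 ± 0.35, adjusted p = 0.536). MT2A had a top step of −0.11 ± 0.17 log2 and a difference of 0.91 ± 0.29 (adjusted p = 0.0471). Without any 1 of the 9 libraries of the 3 doses, 20 µg/mL replicate 2 excepted, the difference for MT2A was not called. Of the genes described above that were not called in the lower step, CYP1A1 differed by 2.50 ± 0.13 log2 between steps (adjusted p = 5.79e-21), IGFBP1 by 1.87 ± 0.38 (adjusted p = 0.000781), G6PC1 by 1.81 ± 0.32 (adjusted p = 8.57e-05) and HAMP by −4.55 ± 0.29 (adjusted p = 1.89e-15).

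**Figure D4:**
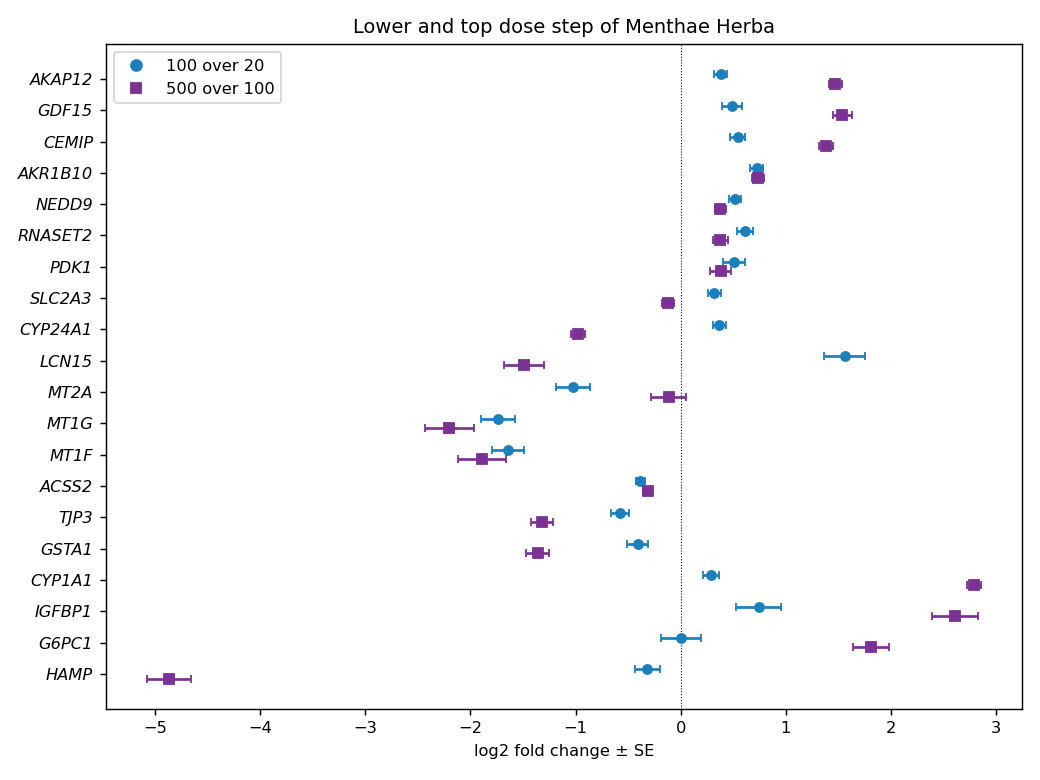
Log2 fold change (horizontal axis, ± SE) of the lower step (circles, 100 over 20 µg/mL) and the top step (squares, 500 over 100 µg/mL) of Menthae Herba for 20 genes (rows). LCN15 and CYP24A1 lie right of 0 in the lower step and left of 0 in the top step, GDF15 and AKAP12 lie further right in the top step, and HAMP moves mainly in the top step; the steps share the 100 µg/mL libraries.

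The same dose step of Saposhnikoviae Radix, measured in 6 other libraries, was compared by a contrast of the 2 steps. It called 29 genes (0.174%), 18 with a higher (0.108%) and 11 with a lower (0.0661%) step in Menthae Herba. Of the 29, 24 were among the 156 genes of the Menthae Herba step, which is itself part of the contrast. Of the metallothioneins, 4 differed between the herbs. MT1G had means of 54.0 and 50.8 CPM at 20 and 100 µg/mL of Saposhnikoviae Radix, against 39.0 and 11.75 CPM for Menthae Herba, and the difference between the steps was −1.65 ± 0.21 log2 (adjusted p = 1.27e-05). The steps of MT1F, MT1E and MT1X differed by −1.64 ± 0.20, −1.30 ± 0.23 and −1.21 ± 0.17 log2 (adjusted p = 5.3e-06, 0.00227 and 5.22e-05). MT2A differed by −0.91 ± 0.23 log2 and was not called (adjusted p = 0.0961). The summed metallothionein level in Saposhnikoviae Radix was 375.9 to 385.4 CPM at 20 and 166.5 to 232.3 CPM at 500 µg/mL. At these doses Saengmaek-san had 358.3 to 455.5 and 82.44 to 130.8 CPM, and Guibi-tang 381.8 to 490.7 and 166.3 to 194.9 CPM. Soyo-san had 375.3 to 441.8 and 136.1 to 147.2 CPM, and Okbyeongpung-san 293.7 to 466.6 and 286.3 to 329.5 CPM. Lower sums at 500 µg/mL, which were not tested, were thus not particular to Menthae Herba. AKR1B10 had 49.1 and 51.3 CPM in Saposhnikoviae Radix, a difference of 0.66 ± 0.08 log2 (adjusted p = 4.16e-06). LCN15, RNASET2 and CEMIP differed by 1.46 ± 0.30, 0.59 ± 0.11 and 0.57 ± 0.10 log2 (adjusted p = 0.00897, 0.00313 and 0.00147). TJP3 and ACSS2 differed by −0.66 ± 0.12 and −0.27 ± 0.06 log2 (adjusted p = 0.00266 and 0.02). SHBG differed by −0.68 ± 0.15 log2 (adjusted p = 0.0186).

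The 5 genes called in the contrast and not in the Menthae Herba step were CYP1A1, ASNS, SLC7A11, MTHFD2 and RHEBP1. CYP1A1 moved more in Saposhnikoviae Radix, from a mean of 13.7 to 25.1 CPM (0.87 ± 0.07 log2, adjusted p = 1.11e-13), a difference of −0.59 ± 0.10 (adjusted p = 0.00147). ASNS, asparagine synthetase, fell in Saposhnikoviae Radix from a mean of 30.0 to 22.8 CPM (−0.40 log2, adjusted p = 0.00192) and had 0.18 log2 in Menthae Herba, a difference of 0.57 ± 0.09 (adjusted p = 0.000304). Leaving out 1 of the 12 libraries ended the difference of LCN15 without Saposhnikoviae Radix 20 µg/mL replicate 1, and that of SHBG in 6 of 12 fits, with adjusted p of up to 0.0854 and 0.114. The count of genes was 20 to 34 over these 12 fits.

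**Figure D5:**
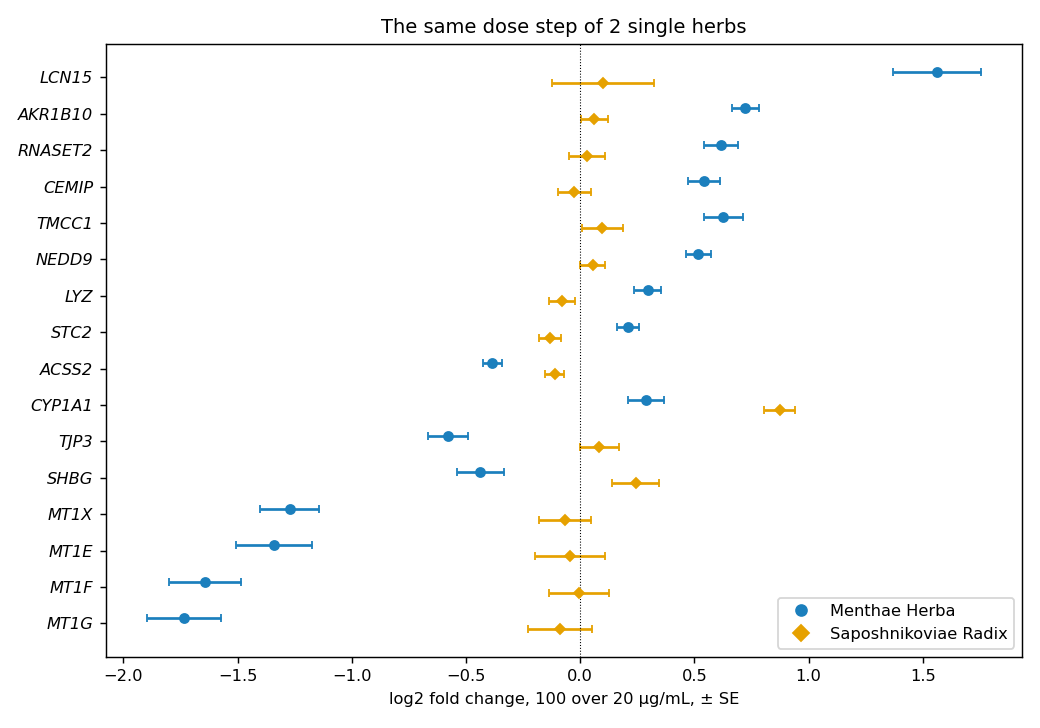
Log2 fold change of 100 over 20 µg/mL (horizontal axis, ± SE) in Menthae Herba (circles) and Saposhnikoviae Radix (diamonds) for the 16 genes named by rule whose steps differed at an adjusted p under 0.05 (rows). The metallothioneins lie near 0 in Saposhnikoviae Radix and between −1.73 and −1.27 in Menthae Herba, and CYP1A1 is the gene with the larger rise in Saposhnikoviae Radix.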

How the data were processed

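RNA from HepG2 cells was sequenced as 100 bp paired-end reads from directional libraries, per the labels' protocols. The deposited table holds expected counts per gene, which the authors made with FastQC 0.11.9, Trim Galore 0.6.5, STAR 2.7.3a and RSEM 1.3.3 on GRCh38, per the submitters' processing notes; for the annotation release and the strand setting, the sources used here give nothing. Of the 60675 gene IDs, 56558 matched the gene-name table. Gene positions are from GENCODE 29, with 57055 IDs matched, and genes without a symbol took 0.521% of counts.

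Expected counts were rounded, and 57 replicated libraries in 19 groups were fitted together with edgeR 4.0.16 (R 4.3.3, TMM scaling, filterByExpr with a minimum count of 10, robust quasi-likelihood F tests); 3 unreplicated libraries were left out. Totals of the 57 ran from 20446542 to 32386486. CPM are on TMM-adjusted totals, and SE is the absolute log2 fold change over the square root of F. P-values were adjusted over all 16644 genes, and called means under 0.05. The 38 residual degrees of freedom are shared by all groups. Counts were simulated with this design (16471 genes), and only genes with a mean of at least 5 CPM were changed. The test recovered 33 of 67 genes changed 1.2-fold, 66 of 67 changed 1.5-fold and 66 of 66 changed 2-fold, with 9 false calls. Counts were drawn independently, so a library that stands apart, as replicate 3 did, was not simulated, and recovery of lower genes was not measured. The alternatives were other scaling (RLE), no filter, fits of fewer libraries, replicate blocks, an adjusted p under 0.01, DESeq2 1.42.0 and each library left out in turn.

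The members, gene lists and tests were chosen with earlier results of these data known. Named genes were, by rule, the 12 largest called changes in each direction with a symbol, 5 CPM or more on average at 20 or 100 µg/mL, and separate groups; up to 3 called members of each list; the 5 largest differences in each direction of each contrast among genes that met those conditions; and 10 set genes (CYP1A1, HMOX1, IGFBP1, G6PC1, HAMP, MT1G, MT2A, AKR1B10, ALB and AFP). Some genes that met the rule are not reported here. Other genes were named after their values were seen. RefSeq promoters were found for 6 of 11 genes looked up.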

Additional observations from a re-analysis of the deposited data

Results flagged for a closer look

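The lower steps of Menthae Herba and Saposhnikoviae Radix, which share no library, differed at an adjusted p under 0.05 in 29 genes by the edgeR contrast of steps (Menthae Herba minus Saposhnikoviae Radix). Among the named genes the log2 difference was positive for LCN15 (1.46), AKR1B10 (0.66), RNASET2 (0.59), CEMIP (0.57), TMCC1 (0.53), NEDD9 (0.46), LYZ (0.37) and STC2 (0.34). It was negative for MT1G (−1.65), MT1F (−1.64), MT1E (−1.30), MT1X (−1.21), SHBG (−0.68), TJP3 (−0.66), CYP1A1 (−0.59) and ACSS2 (−0.27). For CYP1A1 both steps were positive, 0.29 log2 for Menthae Herba and 0.87 for Saposhnikoviae Radix. AKR1B10, CEMIP, MT1E, MT1F, MT1G, MT1X and RNASET2 were called in all 19 alternative fits of this contrast.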

How the results depend on the processing

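For the step from 20 to 100 µg/mL, no called value of a named or listed gene changed direction under any alternative run. Of 64 named or listed genes called, 33 were called without each of the 6 libraries in turn, 21 under every alternative run, and 31 with both libraries numbered 3 left out, an alternative chosen after seeing the data. Of 1376 gene values under alternatives over the 3 contrasts, 1151 stayed on the same side of the threshold, 215 lost and 10 gained it. The 156 calls (86 higher, 70 lower) became 367 (157, 210) with no filter on low counts, which turned the split from mostly higher to 42.8% higher, 241 (151 higher, 90 lower) with DESeq2, 86 (53, 33) with only the 6 libraries fitted, 85 (52, 33) at an adjusted p under 0.01 and 55 (34, 21) with both libraries numbered 3 left out. A fit of only the vehicle and the libraries of both herbs, without the formulas, gave 215 calls (129 higher, 86 lower). It kept 142 of the 156. Leaving out 1 library gave 81 to 150 calls, 47 to 84 higher and 27 to 66 lower, the fewest without 100 µg/mL replicate 3 (81) or replicate 2 (88). Of the 156, 50 were still called with both libraries numbered 3 left out, 67 with only the 6 libraries, 72 with their replicate block, 79 to 114 without 1 library, 126 with no filter, 146 with DESeq2 and 154 with RLE scaling, which called 162; 163 were called with totals that left out mitochondrially encoded genes, also chosen after seeing the data.

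Replicate numbers are shared across groups in the labels. Deviations of same-numbered libraries of both doses had correlations of 0.199, −0.06 and 0.14 over 9334 genes. For numbers 1 and 3, but not 2, this was the highest correlation of the 100 µg/mL library with any at 20 µg/mL. The main fit did not pair samples by number, and so few pairs cannot show that pairing is absent. A replicate block within the libraries of a shared code number gave 262 calls (152 higher, 110 lower) for the step, all 156 among them. It gave 70 (43, 27) for the contrast with Saposhnikoviae Radix. With only the groups compared, the replicate block gave 107 (64 higher, 43 lower) and 85 (51, 34). The contrast with Saposhnikoviae Radix, 29 genes (18, 11), gave 213 (89, 124) with no filter, 63 (38, 25) with only its groups, 55 (34, 21) with only the vehicle and the libraries of both herbs, and 53 (31, 22) with DESeq2. Leaving out 1 library gave 20 to 34 calls, 12 to 22 higher and 8 to 12 lower. The contrast of the top and lower steps, 1247 genes, gave 695 to 1171 without 1 library, 297 to 551 positive and 390 to 634 negative, and 1092 to 1591 under the other alternatives. The causes of these changes were not tested. At this depth MT1M had 1 to 14 counts a library. Of genes of at least 5 CPM changed 1.2-fold, 49.3% were recovered in simulation, which did not vary depth.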

Other observations

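Further genes were called both in the Menthae Herba step and in its difference from the Saposhnikoviae Radix step. Both tests share the Menthae Herba libraries, and the genes were chosen after their values were seen. CEMIP2, a cell surface hyaluronidase related to CEMIP, had 245.1, 250.6 and 238.3 CPM at 20 µg/mL and 304, 303.3 and 314 CPM at 100 µg/mL, a log2 fold change of 0.33 ± 0.05 (SE, edgeR adjusted p = 6.19e-05). FST, follistatin, which binds activins, went from 51.7, 55.0 and 53.7 CPM to 63.7, 65.6 and 70.5 CPM, a log2 fold change of 0.32 ± 0.05 (adjusted p = 3.16e-05). TGFBR3, a co-receptor for TGF-beta, had 0.23 ± 0.05 log2 (adjusted p = 0.00722), and GCNT3, a glycosyltransferase that branches mucin glycans, 0.34 ± 0.06 log2 (adjusted p = 0.000146). TMEM97, a sterol-binding membrane protein, fell from 221.9, 218.7 and 215.2 CPM to 184.6, 178.8 and 173.8 CPM, a log2 fold change of −0.29 ± 0.04 (adjusted p = 4.57e-06). For these 5 genes the steps of the herbs differed by 0.36, 0.38, 0.32, 0.34 and −0.27 log2 in this order.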
